A study of Mus musculus with 4 samples.

Results

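The genes described here are 10 that act in the choice between the CD4 and CD8 T cell lineages: the coreceptor genes Cd4, Cd8a and Cd8b1, the Runt family factors Runx1 and Runx3 with their partner Cbfb, and the nuclear factors Gata3, Tox, Satb1 and Myb. They were taken as every probe set that the platform annotation assigns to 1 of these symbols alone, which gave 29 of the 45037 probe sets on the arrays that are not controls and 10 of the 18193 genes named. A probe set is a group of short array probes that report on 1 transcript. The arrays measured RNA of sorted CD4 single-positive thymocytes, the thymic T cells that display CD4 without CD8, from mice on the B6 background. The KO group (2 arrays) came from Cul3fl/fl mice that carry CD4 Cre, and the LM group (2 arrays) from Cul3fl/fl mice without Cre. Both groups therefore carry the floxed Cul3 allele, and Cre in CD4 Cre mice is driven by regulatory DNA of the Cd4 gene, 1 of the genes measured here. No array came from Cre mice with an unfloxed Cul3, so what Cre does by itself and what follows from losing Cul3 cannot be told apart. The cells had been sorted as negative for CD25, for CD1d-PBS57 binding, which marks NKT cells, and for gdTCR, the receptor of gamma delta T cells. No age is given, and nothing says whether a group's 2 samples were from different mice. The p-values below rest on the variation between 2 samples per group, which may be technical only.

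Thymocytes pass through a double-positive stage, at which they make both coreceptors, before they keep CD4 or CD8. CD4 and CD8 bind MHC class II and class I and bring the kinase Lck to the T cell receptor, and a cell that keeps CD4 silences its Cd8 genes. Runx proteins, which bind DNA together with Cbfb, silence Cd4 and the CD4 lineage factor gene Zbtb7b in cells of the CD8 lineage, while Gata3, Tox and Myb are needed for the CD4 lineage and Satb1, a chromatin organiser, acts on the lineage genes at the double-positive stage. Cul3 is the scaffold of ubiquitin ligases that use BTB-domain adaptors.

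The Runx genes themselves hold the letters that Runx proteins bind, close to a start site. The RefSeq promoter windows (GRCm38.p6, 300 bases each, 250 before to 50 after a start site) held 13 windows for 7 of the 10 genes. They were searched for the Runx core letters TGTGGT and TGCGGT on both strands, counting overlapping matches separately. Of all 32851 windows 22.4% held at least 1 match and 2.86% at least 2. Among the 13 windows 3 held a match, and 2 held a pair. The pairs lay in 1 of the 2 windows of Runx1 and in 1 of the 2 windows of Runx3, and these 2 windows are shown because they share the paired letters. Capitals mark the matches, which read ACCACA, the reverse complement of TGTGGT, on the printed strand.
Runx1, chr16:92826025-92826324, minus strand: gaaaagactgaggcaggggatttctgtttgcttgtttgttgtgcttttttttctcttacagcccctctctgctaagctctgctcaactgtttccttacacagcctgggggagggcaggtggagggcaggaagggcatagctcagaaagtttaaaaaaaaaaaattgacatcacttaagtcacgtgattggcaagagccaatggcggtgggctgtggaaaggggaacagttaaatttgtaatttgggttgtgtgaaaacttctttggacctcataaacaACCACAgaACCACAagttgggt
Runx3, chr4:135120395-135120694, plus strand: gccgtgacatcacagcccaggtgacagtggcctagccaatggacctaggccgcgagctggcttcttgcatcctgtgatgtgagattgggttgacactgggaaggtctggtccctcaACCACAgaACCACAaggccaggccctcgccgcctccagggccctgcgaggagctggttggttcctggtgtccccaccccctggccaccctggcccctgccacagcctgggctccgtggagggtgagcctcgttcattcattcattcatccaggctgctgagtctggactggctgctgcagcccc
In each window the 2 matches begin 8 bases apart, from base 29 after the start site in Runx1 and from 134 bases before it in Runx3. The longest stretch that the windows share is 18 bases, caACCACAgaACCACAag. The 14 letters ACCACAgaACCACA, chosen after the matches were seen, occurred in 4 of the 32851 windows. These belong to Runx1, Runx3, the third family member Runx2, and Gm16225, a gene on the same chromosome as Runx3 and on the opposite strand. A match of letters describes the window and does not show binding. Cd8a held 1 match in its window, reading ACCGCA from base 44 after the start, and the windows of Cbfb, Gata3, Myb and Satb1 held none.

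The brightest probe set of each of the 10 genes lay above background on every array. Background was defined on each array as the signal that 95% of 80 probe sets for olfactory and vomeronasal receptors stayed under, and came to 97.4 and 83.4 on the KO arrays and 109 and 85.2 on the LM arrays. All 8 of 8 measured markers listed for CD4 single-positive T cells, among them Cd3d, Cd3e, Cd3g, Cd28 and Zbtb7b, were above background on every array. Their summed signals were 61542 and 57957 on the KO arrays and 57688 and 61224 on the LM arrays. Most of these are general T cell genes, and only Cd4 and Zbtb7b among them are tied to the CD4 lineage. The sum therefore does not by itself tell CD4 from CD8 T cells. Of the CD8 single-positive T cell markers Cd8a, Cd8b1, Runx3 and Itgae were above background on every array and Eomes and Nkg7 on none, and the 6 summed to 2614 and 2393 on the KO arrays and 2443 and 2308 on the LM arrays. Of the double-positive thymocyte markers Rag1, Dntt and Arpp21 were above background throughout, Rag2 on some arrays and Ptcra on no array. The 5 summed to 2510 and 3102 on the KO arrays and 2314 and 3129 on the LM arrays. The 4 regulatory T cell markers (Foxp3, Il2ra, Ikzf2 and Ctla4) were above background on every array and summed to 5496 and 4795 on the KO arrays and 3827 and 3577 on the LM arrays, without overlap, and their part in the values below was not tested. All of 3 natural killer cell markers were below background on every array, as were 3 of 4 B cell, 3 of 4 dendritic and 4 of 5 thymic epithelium markers, with Epcam above it throughout. Of 6 myeloid markers Cd68 was above background on every array and Cd14 and Adgre1 on none. Of 3 erythroid markers Slc4a1 and Klf1 were above background on no array and Alas2 on some. Of 4 gamma delta or NKT markers, of cells that the sort gated out, 2 were measured. These, Zbtb16 and Sox13, were above background on every array. They summed to 456 and 388 on the KO arrays and 607 and 461 on the LM arrays, without overlap but by a narrow margin. Zbtb16 differed by -0.49 ± 0.36 (log2, SE, limma adjusted p = 0.806) and Sox13 by -0.26 ± 0.26 (limma adjusted p = 0.87). Their part in the values below was not tested. Cul3 itself, read by its brightest probe set, had 5380 and 5577 on the KO arrays and 5333 and 5724 on the LM arrays, a log2 difference of -0.01 ± 0.09 (SE, n = 2 each, limma adjusted p = 0.994). The other 4 probe sets of Cul3 differed by 0.31, 0.07, -0.15 and -0.02, with adjusted p-values of 0.677 to 0.997 over all probe sets, so none was lower on the KO arrays past the threshold. Which part of the gene was deleted is not given in the sources used here, so these probe sets may lie outside it, and the genotype rests on the labels.

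Differences between the KO and LM arrays are given on the scale of log2(intensity + 16) after quantile normalization, which understates changes of dim genes, with standard errors and adjusted p-values from limma fitted over 11253 genes. None of the 10 genes passed an adjusted p of 0.05, against 0.275% of all genes tested (31 genes). At an unadjusted p below 0.05 the count was 0 of 10, against 8.39% of all genes. The differences were positive for 5 genes and negative for 5, with a median of -0.04 beside 0.002 over all genes, and a median size of 0.15 beside 0.17. For 6 of the 10 the KO and LM arrays did not overlap, 2 of them higher on the KO arrays and 4 lower, where 37.4% of all genes tested did not overlap (19.1% higher and 18.3% lower on the KO arrays). The 10 adjusted p-values lay between 0.679 and 0.994.

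**Figure D1:**
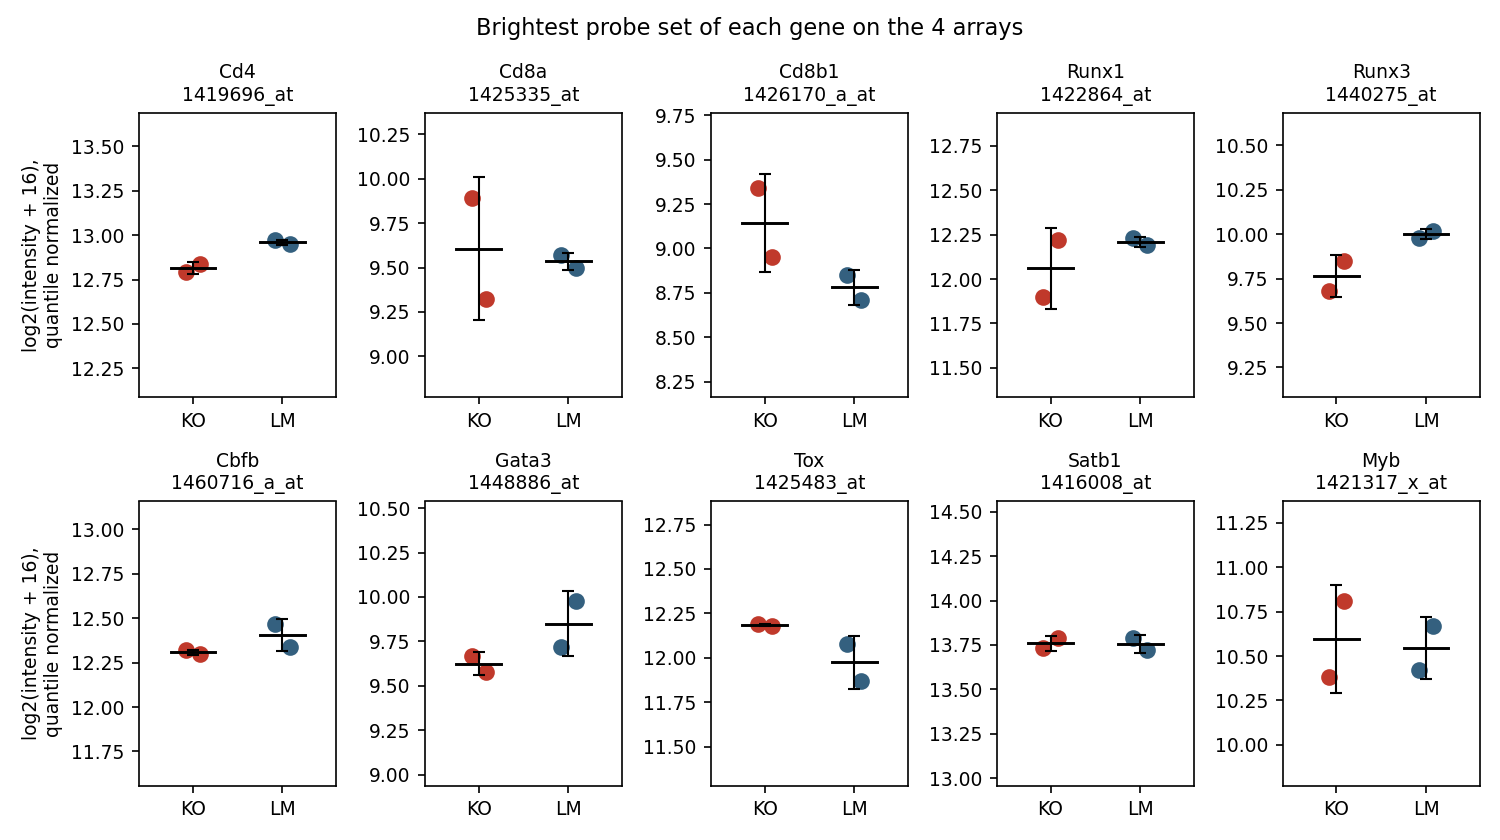
Normalized log2 signal of the brightest probe set of each gene on the 2 KO arrays (red) and the 2 LM arrays (blue); black bars are group means and whiskers the SD (n = 2). All panels span the same number of log2 units; the KO points of Cd4, Runx3, Gata3 and Cbfb all lie below the LM points, those of Tox and Cd8b1 above, and those of Cd8a, Runx1, Satb1 and Myb overlap with them.

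Among the coreceptors, Cd4 was the gene with the smallest scatter between arrays. Its brightest probe set read 7169 and 7233 on the KO arrays and 7742 and 8153 on the LM arrays. Both KO arrays were thus below both LM arrays, and the second probe set showed the same order, with 3790 and 3541 on the KO arrays and 3983 and 4251 on the LM arrays. The normalized means were 12.82 ± 0.03 in KO and 12.96 ± 0.01 in LM (log2, SD, n = 2 each). The log2 difference was -0.14 ± 0.08 (SE, adjusted p = 0.722), with a 95% interval of -0.32 to 0.04, so that the KO signal was 90.7% of the LM signal with an interval of 80.2% to 103%. The second probe set differed by -0.15 ± 0.11 (adjusted p = 0.743 and 0.822 for the 2 in the fit over separate probe sets).

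Cd8a, which encodes the alpha chain shared by both forms of CD8, scattered more. Its brightest probe set read 926 and 625 on the KO arrays and 756 and 703 on the LM arrays. The LM arrays lay between the 2 KO arrays. The log2 difference was 0.07 ± 0.22 (SE, adjusted p = 0.975). Leaving out KO replicate 1 gave -0.22, and leaving out KO replicate 2 gave 0.35. A further probe set built from the same GenBank record read 521 and 209 on the KO arrays and 405 and 458 on the LM arrays, with KO replicate 2 alone standing low, and differed by -0.38 ± 0.35, or by 0.28 without that array. Of the other 3 probe sets of Cd8a, those tested differed by 0.24 and 0.10, and the remaining one, with signals of 79.0 to 100.5, was above background on 1 array and was not tested.

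Cd8b1, which encodes the beta chain found on conventional CD8 T cells, had the largest difference of the 10 genes. It read 629 and 479 on the KO arrays and 458 and 390 on the LM arrays, so both KO arrays lay above both LM arrays. The normalized means were 9.14 ± 0.28 in KO and 8.78 ± 0.10 in LM (log2, SD, n = 2 each). The log2 difference of 0.36 ± 0.23 (SE, adjusted p = 0.756) had a 95% interval of -0.13 to 0.86, or 91.2% to 181% of the LM signal, and was 0.16 if KO replicate 1 was left out and 0.56 if KO replicate 2 was. KO replicate 1 was the higher KO array in the brightest probe sets of both Cd8 genes and of Foxp3, the regulatory T cell factor. Foxp3 read 794 and 363 on the KO arrays and 499 and 289 on the LM arrays (log2 difference 0.48 ± 0.34, limma adjusted p = 0.804, or -0.09 without KO replicate 1). The brighter probe set of Runx3 (797 and 903 on the KO arrays) and a dim one of Cd8a (177 and 218) went the other way. Il2ra was near equal on the KO arrays (963 and 949). The summed CD8 single-positive T cell markers given above overlapped between the groups, but that sum includes Cd8b1 itself, with Cd8a and Runx3. Itgae, the other marker of that list above background, differed by 0.78 ± 0.36 (log2, SE, limma adjusted p = 0.6). The part of CD8 single-positive T cells in the Cd8b1 values was not tested. In RNA of bulk sorted cells, a different share of cells of a type and a different amount of RNA per cell cannot be told apart.

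Among the Runt family factors, Runx1 was read by 6 probe sets that did not all point one way. The brightest read 3844 and 4726 on the KO arrays and 4682 and 4806 on the LM arrays, with KO replicate 1 low and KO replicate 2 between the LM arrays. Its log2 difference was -0.15 ± 0.12 (SE, adjusted p = 0.829). It was 0.01 when KO replicate 1 was left out and -0.31 when KO replicate 2 was. The next brightest, built from the same RefSeq record, read 2503 and 2366 on the KO arrays and 3215 and 3093 on the LM arrays. Here both KO arrays were below both LM arrays, and the log2 difference was -0.36 ± 0.13 (SE, 95% interval -0.64 to -0.09, unadjusted p = 0.0133, adjusted p = 0.45 over all probe sets). The 4 dimmer probe sets differed by 0.27, 0.27, 0.02 and -0.002, with standard errors of 0.21 to 0.33, and whether the probe sets differ from each other was not tested.

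Runx3, the factor of the CD8 lineage that silences Cd4, was read by 2 probe sets with opposite signs. The brighter read 797 and 903 on the KO arrays and 998 and 1022 on the LM arrays, both KO arrays below both LM arrays, with a log2 difference of -0.23 ± 0.18 (SE, adjusted p = 0.821), or -0.15 without KO replicate 1. Its 95% interval of -0.63 to 0.16 left 64.7% to 112% of the LM signal. The dimmer read 161 and 213 on the KO arrays and 162 and 65.6 on the LM arrays, the last of these below background, and differed by 0.69 ± 0.41 (adjusted p = 0.748). That difference was 0.20 without this LM array, LM replicate 2, and 1.18 without LM replicate 1. Averaging the 2 probe sets turned the sign of the Runx3 difference, to 0.23.

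Cbfb, the subunit that raises the DNA affinity of every Runx protein, read 5148 and 4959 on the KO arrays and 5495 and 5291 on the LM arrays. The KO arrays again lay below the LM arrays, by -0.10 ± 0.10 (log2 difference ± SE, adjusted p = 0.878), or -0.03 without LM replicate 1. The 95% interval of -0.31 to 0.12 corresponds to 80.6% to 109% of the LM signal. The brightest probe sets of Runx1, Runx3 and Cbfb thus all had negative differences, and none of them passed the threshold.

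**Figure D2:**
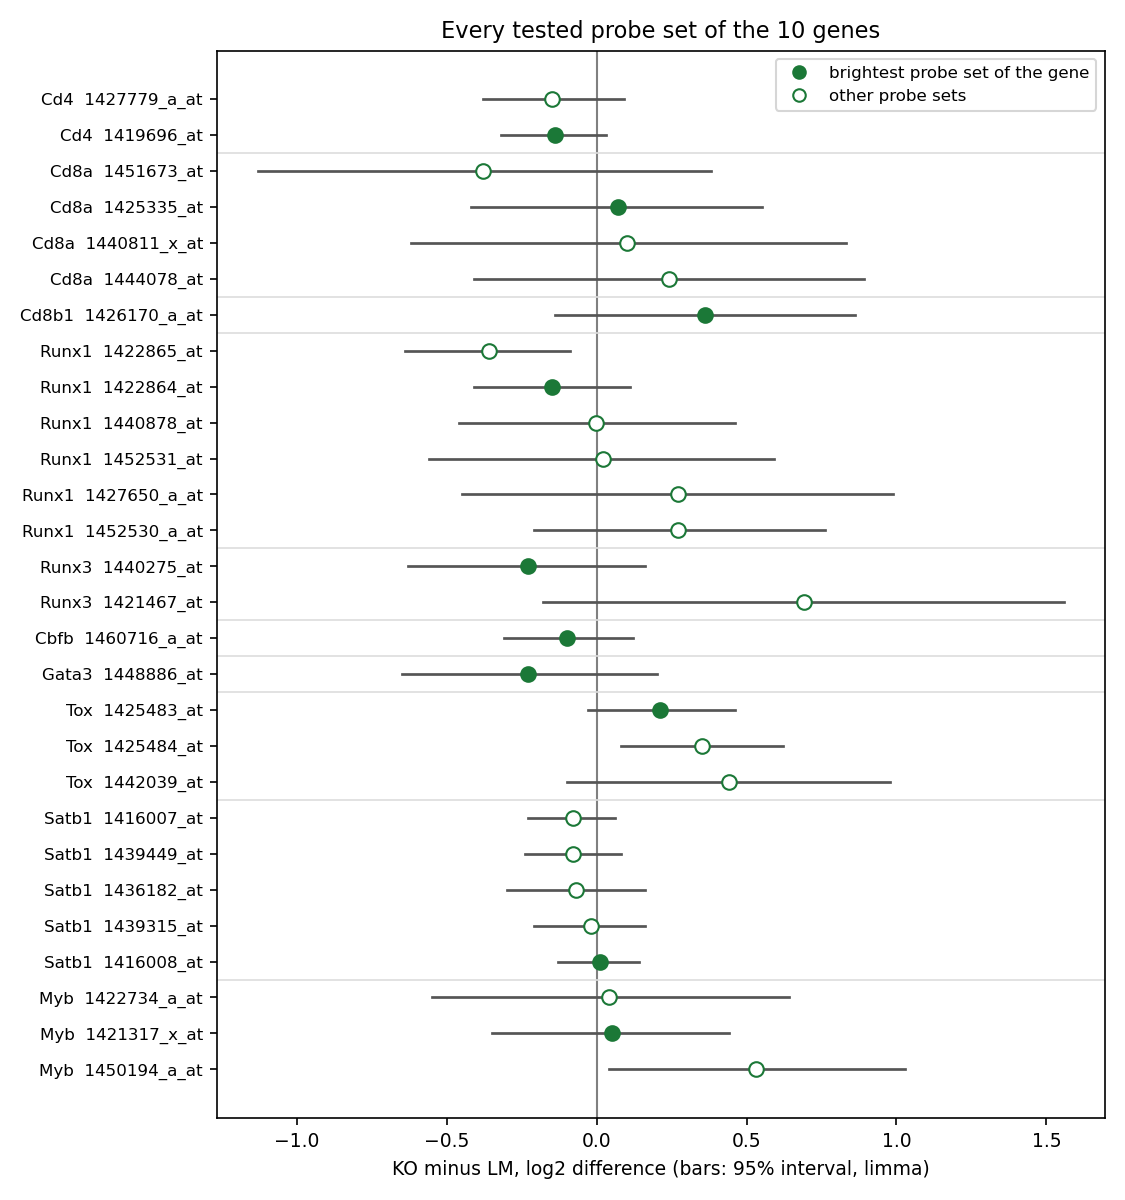
KO minus LM log2 difference of each of the 28 tested probe sets with its 95% interval from limma; filled points are the brightest probe set of each gene and open points the others. Of the 28, 15 lie above 0 and 13 below, and 3 intervals exclude 0 without adjustment: the second probe sets of Runx1 (-0.36) and Tox (0.35) and 1 of Myb (0.53).

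Among the nuclear factors, Tox and Gata3 stood on opposite sides. Tox, an HMG-box factor required for CD4 lineage development, read 4689 and 4601 on the KO arrays and 4218 and 3819 on the LM arrays in its brightest probe set. Both KO arrays were above both LM arrays there, and likewise in the second probe set, with 3662 and 3873 on the KO arrays and 3161 and 2800 on the LM arrays. The third, with 757 and 499 on the KO arrays and 416 and 492 on the LM arrays, also had both KO signals above both LM signals as deposited, while its normalized values overlapped. The log2 differences of the 3 probe sets were 0.21 ± 0.11, 0.35 ± 0.13 and 0.44 ± 0.25 (SE), with adjusted p-values of 0.693, 0.464 and 0.735 over all probe sets. The unadjusted p of the second was 0.0155, and the third differed by 0.13 without KO replicate 1. Of the 10 genes, Tox had the smallest adjusted p (0.679, 95% interval -0.03 to 0.46). Its difference was 0.11 without LM replicate 2 and 0.32 without LM replicate 1.

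Gata3, a zinc finger factor upstream of Zbtb7b, was read by 1 probe set. It gave 791 and 748 on the KO arrays and 834 and 992 on the LM arrays, with LM replicate 2 the highest and no overlap between the groups. The log2 difference was -0.23 ± 0.19 (SE, adjusted p = 0.839), or -0.09 without LM replicate 2, with a 95% interval of -0.64 to 0.19.

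Satb1 had the narrowest interval of the 10 genes. Its brightest probe set read 14153 and 13770 on the KO arrays and 13381 and 14155 on the LM arrays, and the groups overlapped. The log2 difference was 0.01 ± 0.06 (SE, adjusted p = 0.994), with a 95% interval of -0.13 to 0.15, or 91.3% to 111% of the LM signal. The other 4 probe sets of Satb1 differed by -0.08, -0.07, -0.02 and -0.08, and the interval of each included 0.

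Myb, a factor of double-positive thymocytes that acts upstream of Gata3 in cells turning to CD4, was read by 3 probe sets. The brightest, of the x_at kind whose probes can also match other sequences, read 1318 and 1763 on the KO arrays and 1356 and 1629 on the LM arrays, and overlapped. It differed by 0.05 ± 0.18 (log2, SE, adjusted p = 0.981). With KO replicate 1 left out this was 0.26, and with KO replicate 2 left out -0.17. The next read 1009 and 1641 on the KO arrays and 819 and 981 on the LM arrays, with KO replicate 2 standing high. Its log2 difference was 0.53 ± 0.23 (SE, unadjusted p = 0.0354, adjusted p = 0.58). This probe set passed the threshold when KO replicate 1 was left out (0.89, adjusted p = 0.0478), in a fit where 254 of 21793 probe sets passed, and differed by 0.18 when KO replicate 2 was left out. The third, with 280 and 372 on the KO arrays and 393 and 247 on the LM arrays, differed by 0.04 ± 0.28.

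Taking every probe set on its own, 0 of the 28 tested passed an adjusted p of 0.05 in limma, against 0.229% of all 21793 probe sets tested. At an unadjusted p below 0.05 there were 3 of 28, against 7.97% of all. The KO and LM arrays did not overlap for 15 of the 28, 7 higher and 8 lower on the KO arrays, against 36.7% of all probe sets (18.3% higher and 18.5% lower). Probe sets of 1 gene report on the same RNA, so these are not 28 separate observations.

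**Figure D3:**
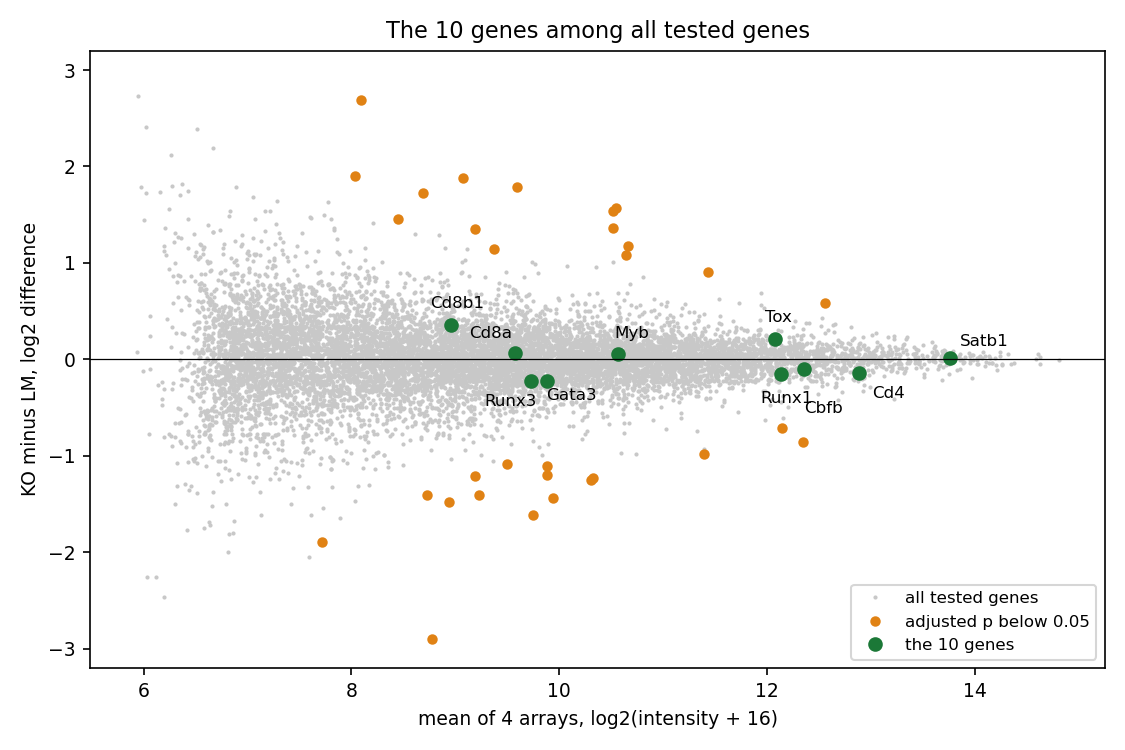
KO minus LM log2 difference against mean log2 signal for the 11253 tested genes (grey), with the 31 genes past an adjusted p of 0.05 in orange and the 10 genes in green. The 10 lie between -0.23 (Runx3 and Gata3) and 0.36 (Cd8b1), away from the orange points.

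How large a difference these arrays could have shown differed between the genes. The largest unadjusted p among the genes called was 0.000118. The difference needed to reach it was taken from each gene's limma standard error, which is largely borrowed from other genes. It was 1.28-fold for Satb1, 1.37-fold for Cd4 and 1.47-fold for Cbfb, but 2.36-fold for Cd8a and 2.41-fold for Cd8b1. For the brightest probe sets, the 95% intervals of 7 of the 10 genes lay within a 1.5-fold difference either way and those of all 10 within 2-fold, on the log2(intensity + 16) scale. Gata3, Runx3 and Cd8b1 were the genes whose intervals reached beyond 1.5-fold there. These bounds rest on the eBayes trend, and intervals without it are not given here. In the fit over separate probe sets, leaving out the trend raised the standard error of Satb1 from 0.06 to 0.16. That of Cd4 went from 0.08 to 0.16 and that of Cbfb from 0.10 to 0.17. The brightest probe sets of Runx1, Tox, Myb and Cd8a also rose, and those of Cd8b1, Gata3 and Runx3 fell slightly. Of the 28 tested probe sets 3 had intervals beyond 2-fold, the second of Myb (0.04 to 1.03), the dimmer of Runx3 (-0.18 to 1.56) and the one of Cd8a with KO replicate 2 low (-1.13 to 0.38).

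**Figure D4:**
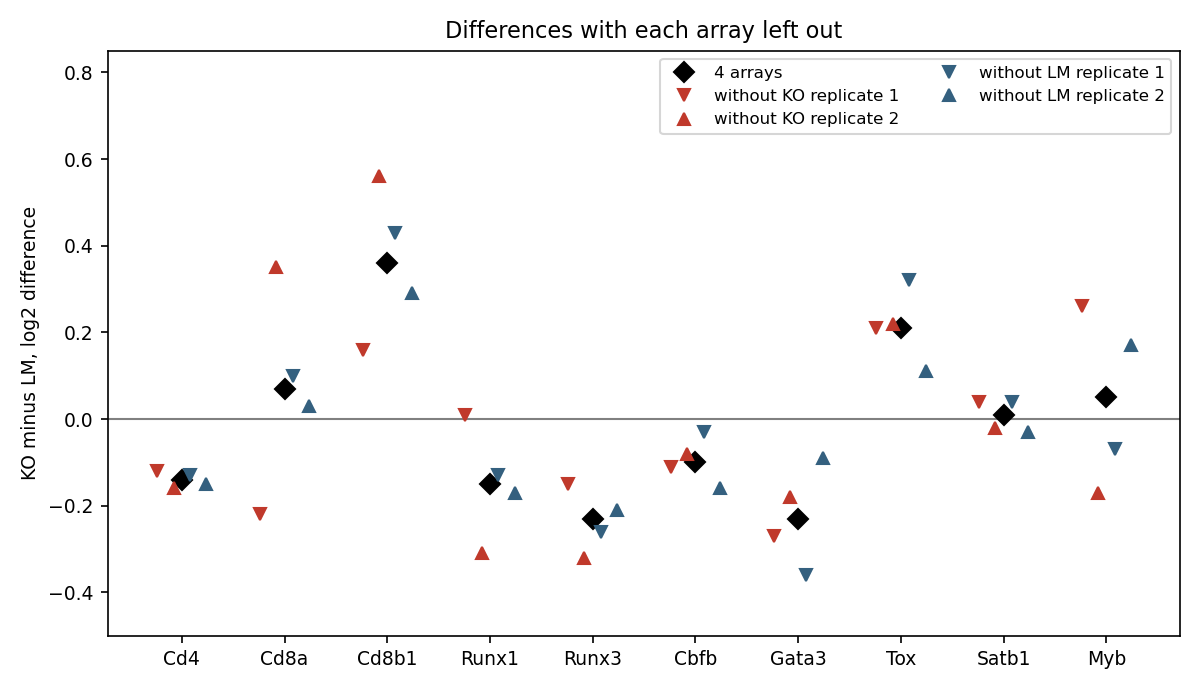
KO minus LM log2 difference of each gene with all 4 arrays (black diamonds) and with 1 array left out (red: a KO array; blue: an LM array). Cd4 stays between -0.16 and -0.12 and Tox between 0.11 and 0.32, while Cd8a runs from -0.22 to 0.35 and Myb from -0.17 to 0.26.

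Genes that work with these 10 were followed in lists drawn from general knowledge. Of the other lineage regulators 18 of 20 were tested, with a median log2 difference of 0.02, 11 positive and 7 negative, and 0 passed in either direction (0.275% of all genes did). Zbtb7b, the zinc finger factor that fixes the CD4 fate, read 1492 and 1525 on the KO arrays and 1337 and 1144 on the LM arrays, so the groups did not overlap. Its log2 difference was 0.29 ± 0.16 (SE, adjusted p = 0.722), and its second probe set differed by 0.19 ± 0.28. Foxo1, a forkhead factor of quiescence and Il7r expression, differed by -0.33 ± 0.18 (adjusted p = 0.703), but by -0.04 without KO replicate 2, while leaving out KO replicate 1 gave -0.62. The Ikaros family factor Ikzf3 differed by 0.13 ± 0.09 (adjusted p = 0.77), or 0.06 without LM replicate 2. Its dimmer probe sets differed by -0.13 ± 0.18 and 0.01 ± 0.20. Zbtb7b differed by 0.18 without LM replicate 2.

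Of the partners in coreceptor silencing and chromatin 21 of 24 were tested, with a median of 0.05, 13 positive and 8 negative, and 0 passed. The histone deacetylase Hdac3 read 834 and 701 on the KO arrays and 1142 and 1123 on the LM arrays, both KO arrays being lower (-0.55 ± 0.18, adjusted p = 0.394). The DNA methyltransferase Dnmt3a read 7034 and 6590 on the KO arrays and 4995 and 6205 on the LM arrays, both KO arrays being higher (0.30 ± 0.10, adjusted p = 0.393, or 0.19 without LM replicate 1). Its other 4 probe sets differed by -0.05 to 0.63, the last with an adjusted p of 0.0688 over all probe sets. The chromatin remodeller Chd4, which binds at Cd4, differed by 0.24 ± 0.11 (adjusted p = 0.581), or 0.13 without KO replicate 1.

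Of the genes for T cell receptor and coreceptor signalling 18 of 20 were tested, with a median of 0.04, 11 positive and 7 negative, and 0 passed. Their differences spanned -0.32 to 0.16, with the adhesion receptor Cd6 at -0.32 ± 0.17 (adjusted p = 0.679, or -0.14 without KO replicate 2), the costimulatory receptor Cd28 at 0.12 ± 0.07 and the adaptor Lat at -0.15 ± 0.11, or -0.01 without LM replicate 2. Lck, the kinase that both coreceptors hold, was not among the genes named here. Interleukin-7 signalling, which sustains cells turning to CD8, had 9 of 11 tested, a median of -0.06, 2 positive and 7 negative, and 0 passed with 1 probe set per gene. The serine kinase Pim1 differed by -0.32 ± 0.17 (adjusted p = 0.685), and the signal transducer Stat5b by -0.22 ± 0.16, or -0.05 without LM replicate 2. The survival factor Bcl2 differed by -0.09 ± 0.08 in its brightest probe set, or -0.02 without KO replicate 2. Another probe set of Bcl2 did pass in the fit over separate probe sets, 1 of the 23 tested for this list, where 0.229% of all probe sets passed. This one, of the x_at kind whose probes can also match other sequences, read 2876 and 4688 on the KO arrays and 807 and 822 on the LM arrays. Both KO arrays stood far above both LM arrays, by 2.16 ± 0.20 (log2 difference ± SE, limma adjusted p = 0.000468). It did not pass without the filter on dim probe sets (adjusted p = 0.0916) or without the eBayes trend (adjusted p = 0.316), and with 1 array left out it ran from 1.80 to 2.51. The remaining 3 probe sets of Bcl2 differed by -0.12, -0.47 and -0.19, so the probe sets of this gene did not point one way. With the mean of all probe sets Bcl2 differed by 0.26. Pim1 also differed by 0.26 in that setting, through a second probe set that was above background on 1 array and was not tested by itself.

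The CD8 lineage and cytotoxic genes were the most scattered of the lists. Of 22 genes 14 were above background on at least 2 arrays, with a median of 0.15, 7 positive and 7 negative, and 0 passed. The dimmer probe set of Hopx, a homeodomain cofactor, read 114 and 66.5 on the KO arrays and 80.4 and 79.3 on the LM arrays. That one was above background on 1 array and was not tested. The brighter probe set of Hopx read 228 and 584 on the KO arrays and 135 and 81.6 on the LM arrays, the last below background. KO replicate 2 stood high, and the difference was 1.63 ± 0.40 (log2, SE, adjusted p = 0.19). It passed with median centring (1.60), without KO replicate 1 (2.26) and without LM replicate 1 (1.87), and was 0.99 without KO replicate 2. The chemokine Ccl5 read 331 and 350 on the KO arrays and 125 and 256 on the LM arrays (0.85 ± 0.34, adjusted p = 0.506), with LM replicate 1 low, and differed by 0.33 without that array and by 1.37 without LM replicate 2. The chemokine Xcl1 read 173 and 159 on the KO arrays and was below background on both LM arrays. With the LM arrays raised to background the group means stood 1.55-fold apart, a value that carries no sampling error and is not a lower limit. It entered the test through the KO arrays alone, where it is high, and no p is given for it. Of the 14 genes, 3 entered through 1 group only (Gzma and Xcl1 through KO, Fasl through LM, named after their values were seen), and the other 11 had a median of -0.11, with 5 positive and 6 negative. Gzmb, Ifng, Tbx21 and Eomes, which mark killer cells, were not above background on 2 arrays and were not tested.

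Of the double-positive thymocyte genes 10 of 12 were tested, with a median of 0.16, 9 positive and 1 negative, and 0 passed. Sox4, an HMG-box factor, read 4640 and 3964 on the KO arrays and 3324 and 3731 on the LM arrays, the KO arrays being higher (0.31 ± 0.12, adjusted p = 0.469). The brightest probe set of the nuclease gene Endou read 160 and 147 on the KO arrays and was below background on both LM arrays. With the LM arrays raised to background the group means of this probe set stood 1.44-fold apart, again a value without sampling error and not a lower limit. This probe set too entered the test through the KO arrays only and is given without a p. The other probe set of Endou read 127 and 79.7 on the KO arrays and 80.8 and 86.1 on the LM arrays. That one was above background on 1 array of each group and differed by 0.16 ± 0.46 (log2, SE). Without Endou the other 9 genes had a median of 0.15, with 8 positive and 1 negative. The lipid-presenting Cd1d1 differed by 0.29 ± 0.17, or 0.15 without KO replicate 2, and its other probe set by -0.12 ± 0.21. Il2ra, the gene of CD25 and so of a protein the sort gated out, read 963 and 949 on the KO arrays and 611 and 540 on the LM arrays (0.72 ± 0.19, adjusted p = 0.221).

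**Figure D5:**
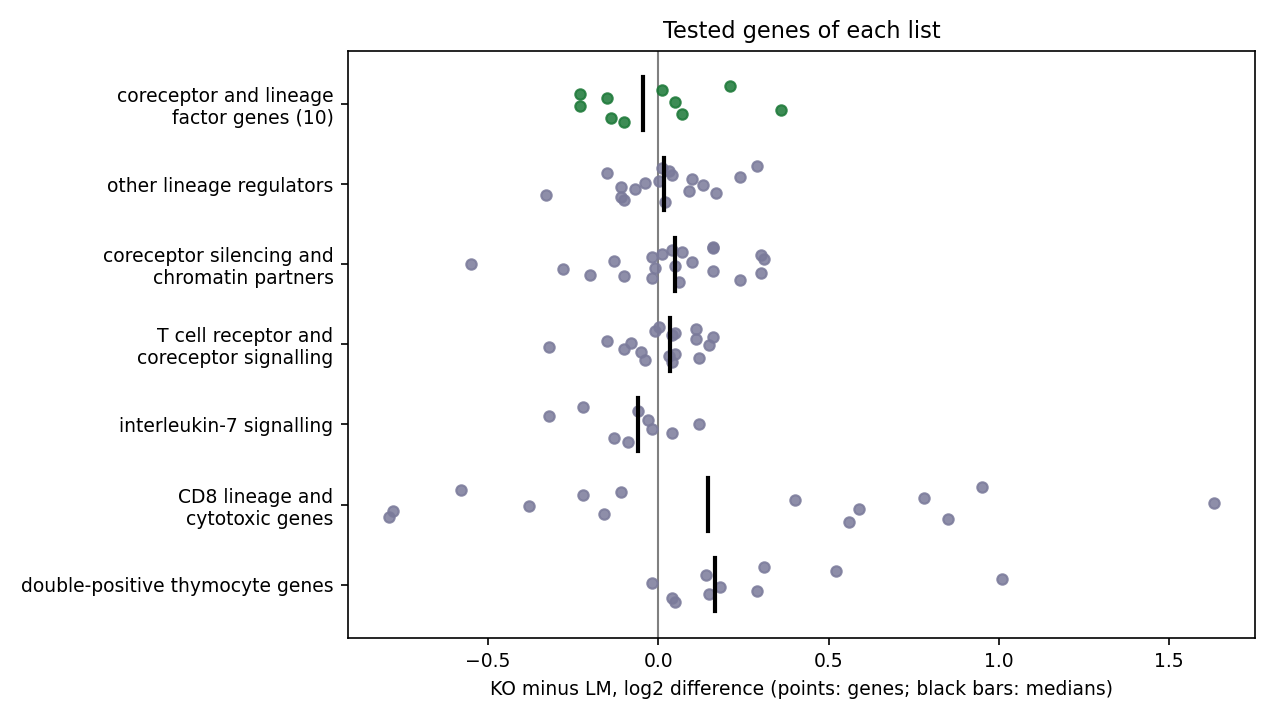
KO minus LM log2 difference of each tested gene (points) in the 10 genes (green) and in the 6 lists of related genes (grey), with list medians as black bars. Medians run from -0.06 for interleukin-7 signalling to 0.16 for double-positive thymocyte genes, and no point passed the threshold. The points include the 4 genes whose brightest probe set was above background in 1 group only.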

How the data were processed

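The deposited values are linear signal intensities, 1 per probe set on each array. Leaving out the highest and the lowest 2%, the mean was 500.0 on every array, so the authors had scaled the intensities. Per the labels' protocols, total RNA was taken up in Trizol and amplified by WT-Ovation Pico, with biotin as the label. No source used here gives the summarising program. Besides controls there were 45037 probe sets, of which the annotation gave 34945 a single gene, 932 several genes and 9160 none.

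Intensities were taken as log2(intensity + 16) and quantile normalized, since array medians differed (7.28 to 7.44). A gene was represented by its brightest probe set and tested if above background on at least 2 arrays. KO minus LM was fitted with limma 3.58.1 in R 4.3.3 (eBayes with trend, genotype only, two-sided, Benjamini-Hochberg over all genes or probe sets tested), with 2 residual degrees of freedom and 9.95 borrowed from other genes. The fit was also run on simulated data drawn from its own model, which cannot show that it suits these arrays. A permutation of 2 against 2 arrays cannot give a p below 0.333. Arrays correlated at 0.961 to 0.974 over tested genes. The 2 KO arrays correlated at 0.964 and the 2 LM arrays at 0.974, beside 0.961 to 0.966 between a KO and an LM array. The number of arrays limits the precision.

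Named genes were the 10 genes with all probe sets, the 3 smallest p-values of each list, and Zbtb7b, Cul3, Foxp3 and Il2ra. The genes and lists were chosen with earlier results of these data known. Symbols in the lists without a single-gene probe set (such as Lck and Tcf7) were not used. Same-numbered arrays did not deviate together (r = -0.0167 across genes), so the numbers were not taken as pairs. Alternatives were the filter on dim genes, the normalization, the pseudocount, the eBayes settings, probe set means, a replicate block and each array left out. Tables and plots used Python 3.11.15, pandas 2.3.3 and matplotlib 3.10.9. Sequences are RefSeq's, build GRCm38.p6. The files name no build, so no other coordinates are given.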

Additional observations from a re-analysis of the deposited data

How the results depend on the processing

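None of the 10 genes passed under any of the 14 alternatives. Of 140 recomputed differences 128 kept their sign and 12 changed it, all short of the threshold. With the mean of all probe sets the sign changed for Cd8a (-0.03), Runx1 (0.01), Runx3 (0.23) and Satb1 (-0.05), and also for Bcl2 (0.26), Pim1 (0.26) and Cul3 (0.04). With median centring it changed for Satb1 (-0.03) and Myb (-0.01) and for the dimmest probe set of Myb (-0.003) and a dim one of Runx1 (-0.03). With 1 array left out, Cd8a ran from -0.22 to 0.35, Runx1 from -0.31 to 0.01, Satb1 from -0.03 to 0.04, Myb from -0.17 to 0.26, Cul3 from -0.05 to 0.03 and Foxp3 from -0.09 to 1.04. Among single probe sets the same omissions gave -0.22 to 0.31 for the dimmest of Myb. They gave -0.05 to 0.60, -0.15 to 0.15 and -0.26 to 0.30 for 3 dim ones of Runx1, -0.17 to 0.02 and -0.12 to 0.07 for 2 of Satb1, and -0.24 to 0.44 and -1.03 to 0.28 for 2 of Cd8a. The cause of these changes was not tested. Leaving out list genes above background in 1 group only, chosen after seeing the data, turned the median of the CD8 lineage and cytotoxic genes to -0.11, against 0.15 with them. With probe sets separately, the count of the 28 that passed ran from 0 to 1 over the omissions, the 1 being the second brightest of Myb without KO replicate 1, and was 0 under the other alternatives. With the replicate block 0 genes and 0 probe sets of the 10 genes passed, and Cd4 differed by -0.14.

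Over all genes, 31 passed with the settings used, 0 without the filter on dim genes and 0 without the eBayes trend, where 1247 and 921 lay at an unadjusted p below 0.05. The count was 81 with median centring, and 55, 40, 81 and 97 without KO replicate 1, KO replicate 2, LM replicate 1 and LM replicate 2. Over all probe sets, 50 passed, against 2 without the filter, 0 without the trend, 77 with a stricter filter, 98 with median centring and 121 to 254 without 1 array. Fits without 1 array assume that the lone array of a group varies like the other group.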
